A study of Homo sapiens with 9 samples.

Results

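Histone genes encode the proteins around which nuclear DNA is wrapped, and 56 of the 36225 genes in the deposited expression table were taken as histone genes here. They were chosen by name among the protein-coding genes: symbols that begin H1- with a number, H2AC, H2BC, H3C or H4C, and the older HIST, H1F, H2AF and H3F symbols. A further 9 genes with such names but no protein-coding transcript were left out. Of the 56 genes, 53 were clustered genes of the replication-dependent type and 3 were variant genes, among them H1-7 and H1-10. Histones with other symbols, such as H2AX, H2AZ1, H3-3A, H3-3B and CENPA, fell outside the naming rule and are described separately.

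The RNA came from RBE, a human cell line established from intrahepatic cholangiocarcinoma, the cancer that arises from bile ducts within the liver. All cells had received a lentivirus, which held a scramble control (control, 3 libraries), a hairpin against IDH1 (shIDH1, 3 libraries) or a hairpin against JOSD2 (shJOSD2, 3 libraries). IDH1 is the cytosolic isocitrate dehydrogenase, JOSD2 is a deubiquitinase, and the series title ties mutant IDH1 to JOSD2 and the coactivators YAP and TAZ. The labels name a single hairpin per target. They do not state separate infections for the replicates, and p-values therefore measure only how these libraries scatter, which may be technical.

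In the nucleosome, DNA winds around a core of the histones H2A, H2B, H3 and H4, and the linker histone H1 binds where the DNA enters and leaves. The clustered genes are normally transcribed during S phase, and most of their mRNA ends in a short stem-loop in place of a poly(A) tail. The stem-loop is bound by SLBP, which acts in the processing and translation of these mRNAs. Variant histone genes mostly lie outside the clusters, and many, though not all, are made throughout the cell cycle and yield only polyadenylated mRNA. Some clustered genes can also yield polyadenylated transcripts that run on past the stem-loop, a form described in cells that have left the cell cycle. RNA was selected here with oligo(dT), which captures poly(A) tails. The values of the clustered genes therefore measure the captured part of their mRNA, and its share of the total was not measured.

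The stem-loop letters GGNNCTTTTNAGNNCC, where N is any base, were searched on the transcript strand of the GENCODE v29 transcripts. They were found in 27 of the 54 histone genes that have a transcript there, and in 80 of all 58676 genes, or 0.136%. The windows of 6 genes that the results turn on are shown 5′ to 3′, with the matched element in capitals and 5 bases on either side.
H2AC6: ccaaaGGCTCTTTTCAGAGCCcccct
H2BC4: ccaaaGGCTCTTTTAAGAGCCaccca
H2BC8: tcaaaGGCTCTTTTCAGAGCCactca
H4C8: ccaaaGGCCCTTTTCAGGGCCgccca
H4C9: aaaaaGGCCCTTTTTAGGGCCcctaa
H4C14: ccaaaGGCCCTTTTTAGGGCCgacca
The 27 genes held 5 distinct elements. The element of H2AC6 and H2BC8 was the most common and stood in 15 genes, that of H2BC4 in 4, that of H4C8 in 4 and that of H4C9 and H4C14 in 3. The annotated transcripts of H1-10 did not hold these letters.

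Many H2A and H2B genes lie head to head and share the stretch between their start sites. The promoters of 3 such genes are shown because the results return to them, as RefSeq gives them on GRCh38.p14, from 250 bases before to 50 after the annotated start. Where RefSeq lists several starts, the one nearest the deposited start was taken. Capitals mark 3 motifs searched on both strands: CCAAT, the TATAAA box and the octamer ATTTGCAT. The reverse of TATAAA on the other strand reads TTTATA, and a match of each overlaps in H2BC12.
H2AC6, chr6:26123922-26124221, plus strand: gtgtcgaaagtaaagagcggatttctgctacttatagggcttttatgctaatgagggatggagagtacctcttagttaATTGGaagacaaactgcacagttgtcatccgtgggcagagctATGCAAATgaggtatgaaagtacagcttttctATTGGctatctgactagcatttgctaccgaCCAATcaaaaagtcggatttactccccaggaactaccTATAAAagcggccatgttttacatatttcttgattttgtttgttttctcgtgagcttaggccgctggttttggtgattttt
H2BC8, chr6:26216639-26216938, minus strand: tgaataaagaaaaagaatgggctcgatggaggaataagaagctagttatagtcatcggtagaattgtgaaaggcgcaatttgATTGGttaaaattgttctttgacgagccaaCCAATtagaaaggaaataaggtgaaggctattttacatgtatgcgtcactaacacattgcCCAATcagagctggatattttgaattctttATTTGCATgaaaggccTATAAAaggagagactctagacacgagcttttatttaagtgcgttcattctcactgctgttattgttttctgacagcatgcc
H2BC12, chr6:27146806-27147105, minus strand: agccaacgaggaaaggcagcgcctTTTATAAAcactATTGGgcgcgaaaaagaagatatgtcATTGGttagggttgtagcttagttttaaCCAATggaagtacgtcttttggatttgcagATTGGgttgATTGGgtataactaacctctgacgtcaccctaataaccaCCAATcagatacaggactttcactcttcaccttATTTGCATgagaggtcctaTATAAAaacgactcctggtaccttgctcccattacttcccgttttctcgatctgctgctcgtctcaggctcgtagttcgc
The first window also holds the start of H2BC4 on the other strand, and that of H2AC12 lies just before the first base printed of the last. The TATAAA letters nearest the start lay 31 bases upstream in H2AC6, 32 in H2BC8 and 30 in H2BC12. The octamer lay 48 bases upstream of the start in H2BC8, 49 in H2BC12 and 130 in H2AC6.

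Promoters were present for 49 clustered genes, and in 7 of them the RefSeq start lay more than 50 bases from the deposited one. CCAAT stood in 83.7% of the 49, against 35.7% of all 27305 promoters of the same length. The TATAAA letters stood in 69.4% against 12%, and the octamer in 38.8% against 1.8%. The octamer was held by 11 of 14 H2B and 8 of 12 H2A promoters, and by none of the 4 H1, 10 H3 and 9 H4 promoters. CCAAT was held by every promoter of the H1, H2A, H2B and H3 families but by 1 of the 9 H4 promoters. A match describes letters in this window and is no evidence of binding.

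The hairpin targets and cell markers were examined first. Levels are given as FPKM, fragments per length of transcript and depth of library. IDH1 stood at 38.9 to 47.4 FPKM in control, 12.3 to 13.1 with shIDH1 and 32.7 to 35.5 with shJOSD2. The edgeR fit called it lower in both hairpin groups, at log2 -1.80 in shIDH1 and -0.50 in shJOSD2. JOSD2 stood at 6.15 to 6.66 FPKM in control, 1.51 to 1.85 with shIDH1 and 0.708 to 0.906 with shJOSD2, so that it was lower in both hairpin groups. The 8 markers of biliary epithelium summed to 1470 to 1850 FPKM over all libraries, whereas the 4 endothelial markers summed to at most 1.14. Among the biliary markers, 3 were called higher and 2 lower in shIDH1, and 1 higher and 5 lower in shJOSD2. For these and the marker calls below, the shares of all tested genes were 24.5% higher and 25.6% lower in shIDH1. In shJOSD2 they were 18.2% higher and 20.1% lower. The 7 markers of leukocytes and blood summed to 4.23 to 19.6 FPKM in control, 4.81 to 6.28 with shIDH1 and 8.17 to 19.5 with shJOSD2. The 7 fibroblast markers summed to 18.9 to 21.4 FPKM in control and 40.1 to 42.3 in the hairpin groups, led by ACTA2. Of the 5 tested, 4 were called higher in shIDH1 (ACTA2, COL1A1, COL1A2 and PDGFRA) and 2 in shJOSD2 (ACTA2 and PDGFRA), and 0 lower. DCN and LUM were not tested and averaged at most 0.0112 FPKM. The 8 hepatocyte markers summed to 38.2 to 84.7 FPKM in the control libraries, and to 92.3 to 97.6 with shIDH1 and 57.2 to 59.2 with shJOSD2. Of these, 2 were called higher in each hairpin group, FGB and SERPINA1, while 3 were called lower in shIDH1 and 4 in shJOSD2. Control replicate 1 stood apart from the other control libraries, with ALB at 0.104 FPKM against 1.23 and 1.43. The part of these markers in the histone values was not tested. Library totals lay between 66036276 and 71612713 deposited counts.

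Most clustered histone genes were scarce in these poly(A) libraries. The mean over the 9 libraries was below 0.5 FPKM in 35 of the 53 clustered genes, from 0.5 to under 5 in 14, and 5 or more in 4 genes: H2BC12, H1-2, H2AC6 and H2BC4. The low-count filter of edgeR kept 28 clustered genes and 2 variant genes for testing. The 25 clustered genes it left out did not exceed 0.786 FPKM in any library. The 11 clustered genes on chromosome 1, between bases 149782689 and 149887965 of GRCh38, included 10 tested ones. Of the 42 on chromosome 6, between 26020451 and 27893891, 18 were tested.

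Clustered histone transcripts were higher in both hairpin groups than in control. Summed over the 53 clustered genes, they stood at 79.0 ± 7.00 FPKM in control, 142 ± 8.00 with shIDH1 and 142 ± 2.08 with shJOSD2 (SD, n = 3 each). The 3 control libraries lay between 71.6 and 85.5 FPKM, below the lowest library of either hairpin, at 134. FPKM is scaled by transcript length and library size, without the TMM scaling factors of the fit used below. These factors were 1.069 to 1.082 in shJOSD2 and 0.9424 to 0.9853 in the other libraries. A comparison of shJOSD2 with another group can therefore differ between FPKM and the fit. H2BC12 alone held 55.1% of the control sum, 45.1% of the shIDH1 sum and 56.7% of the shJOSD2 sum. In these bulk samples, fewer cells that make a transcript and less of it per cell cannot be told apart.

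In shIDH1 against control, 16 of the 28 tested clustered genes, or 57.1%, were called higher and 0 lower (edgeR quasi-likelihood test, Benjamini-Hochberg adjusted p under 0.05). Of all 21492 tested genes, 24.5% were called higher and 25.6% lower. The median log2 change was 1.07 for the tested clustered genes and 0.01 for all tested genes. In shJOSD2 against control, 12 of the 28, or 42.9%, were called higher and 0 lower, where 18.2% of all tested genes were called higher and 20.1% lower. The medians there were 0.70 and 0.03. At an unadjusted p under 0.05 the count called lower was again 0 in both comparisons, and DESeq2 also called 0 lower.

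These counts cover only genes that passed the filter, which a gene can pass through the group where it is high. With no filter on the 53 clustered genes, 14 were called higher in shIDH1 and 8 in shJOSD2, and 0 lower. Among all 36225 genes in that setting, 4829 were called higher and 5068 lower in shIDH1, and 3369 higher and 3907 lower in shJOSD2. The median log2 change over all 53 was 0.56 in shIDH1 and 0.38 in shJOSD2. With control replicate 1 as the only control library, fewer clustered genes and fewer of all tested genes were called higher in each hairpin group. The median log2 change of the clustered genes was 1.17 in shIDH1 and 0.78 in shJOSD2 there. Without that library, 9 of 30 tested clustered genes were called higher in shJOSD2 and 14 of 30 in shIDH1. Of all 22496 tested genes, 3975 and 5298 were called higher, in the same order. There 1 gene, H3C3, which did not pass the filter over all 9 libraries, was called lower in shIDH1. The comparisons with control share the control libraries. All 12 clustered genes called higher in shJOSD2 were also called higher in shIDH1, and 4 more passed in shIDH1 only.

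**Figure D1:**
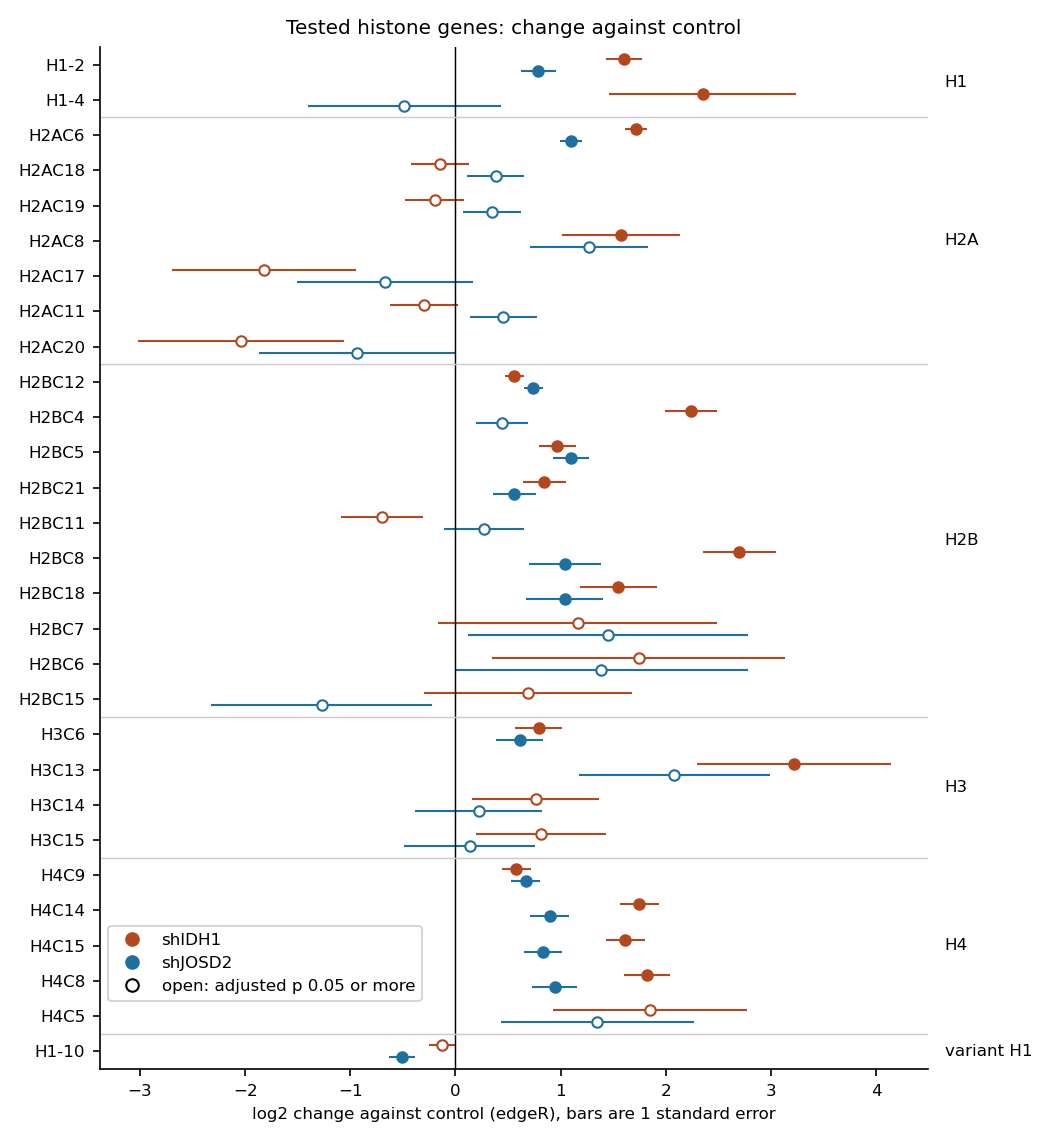
The log2 change against control of 29 of the 30 tested histone genes, by family and, within a family, by mean level; bars are 1 standard error of the edgeR fit over 3 libraries per group. Filled points passed an adjusted p under 0.05: 16 clustered genes for shIDH1 and 12 for shJOSD2 lie to the right of 0, and the variant gene H1-10 lies to the left for shJOSD2.

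Between the hairpins, 8 of the 28 tested clustered genes, or 28.6%, were called higher in shIDH1 than in shJOSD2 and 0 lower. Of all tested genes, 20.8% were called higher in shIDH1 and 24.0% lower. The median log2 difference was 0.43 for the clustered genes and -0.06 for all tested genes. That of the clustered genes was 0.15 without shIDH1 replicate 3, and 0 over all 53 genes with no filter. At an unadjusted p under 0.05, 2 clustered genes were lower in shIDH1, and DESeq2 called 0. The 8 genes were H1-2, H1-4, H2AC6, H2BC4, H2BC8, H4C8, H4C14 and H4C15.

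Both tested clustered linker histone genes were called higher in shIDH1, and 1 of them in shJOSD2. The shares of all tested genes called higher were 24.5% and 18.2%. H1-2 (ENSG00000187837, chromosome 6, 26055740 to 26056470, minus strand) encodes a linker histone found in most somatic cells and was the second most abundant clustered gene. It stood at 4.82, 6.17 and 6.88 FPKM in control, 17.7, 20.2 and 16.6 with shIDH1 and 9.69, 13.2 and 11.5 with shJOSD2. The groups did not overlap, and shIDH1 was the highest. The fit gave a 3.04-fold rise in shIDH1 (log2 1.60, SE 0.167, adjusted p = 5.18e-06) and a 1.73-fold rise in shJOSD2 (log2 0.79, SE 0.166, adjusted p = 0.00237). The difference between the hairpins was itself called, at log2 0.81 (adjusted p = 0.00129).

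H1-4, another somatic linker histone gene, was far scarcer. It stood at 0.173, 0.245 and 0.214 FPKM in control, 0.622, 0.671 and 1.94 with shIDH1 and 0.133, 0.360 and 0 with shJOSD2. The rise in shIDH1 (log2 2.35, SE 0.890, adjusted p = 0.0444) was called in 10 of 19 alternative settings. It was lost without control replicate 1, 2 or 3, without shIDH1 replicate 2 or 3 and without shJOSD2 replicate 1, with adjusted p between 0.0535 and 0.254. The difference between the hairpins, at log2 2.83 (adjusted p = 0.0233), was lost without shIDH1 replicate 3 (adjusted p = 0.154) or shJOSD2 replicate 1 (adjusted p = 0.075). H1-3 and H1-5 did not pass the filter, with at most 0.145 FPKM in any library.

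Among the 7 tested H2A genes, 2 were called higher in shIDH1 and 1 in shJOSD2. These are 28.6% and 14.3%, near the shares of all tested genes, and the median log2 changes were -0.20 and 0.38. H2AC6 (ENSG00000180573, chromosome 6, 26124145 to 26139116, plus strand), a core H2A gene and the most abundant of its family, had the least scatter. Its 3 control libraries stood at 4.15, 3.90 and 3.90 FPKM, its shIDH1 libraries at 13.2, 12.9 and 13.3, and its shJOSD2 libraries at 8.34, 9.30 and 10.8. The groups were fully separate. The rise was 3.29-fold in shIDH1 (log2 1.72, SE 0.106, adjusted p = 5.5e-08) and 2.14-fold in shJOSD2 (log2 1.10, SE 0.105, adjusted p = 6.06e-06). H2AC8 was called higher in shIDH1 (log2 1.57, SE 0.560, adjusted p = 0.0339), from 0.473 ± 0.296 to 1.44 ± 0.932 FPKM (SD, n = 3 each), and the call held in 15 of 21 alternative settings. It was lost without control replicate 1 or 2 (adjusted p = 0.0976 and 0.101) and without shIDH1 replicate 1 (adjusted p = 0.217).

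The other 5 tested H2A genes did not pass in either comparison with control. H2AC18 and H2AC19, a pair on chromosome 1 whose transcripts share nearly all their sequence, stood at 3.06 ± 0.640 and 3.02 ± 0.630 FPKM in control. They stood at 2.76 ± 0.513 and 2.64 ± 0.491 with shIDH1, and at 4.43 ± 1.35 and 4.27 ± 1.32 with shJOSD2 (SD, n = 3 each). Reads of such a pair can be assigned to either copy, so their split is uncertain. H2AC17 and H2AC20 had fitted log2 changes of -1.82 and -2.04 in shIDH1 (adjusted p = 0.106 for each). The model of H2AC17 shares 84.0% of its stretches of 100 bases with H3C12.

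H2B held the largest summed level, at 47.6 to 55.3 FPKM in control, 77.6 to 95.0 with shIDH1 and 92.8 to 98.1 with shJOSD2. Of its 10 tested genes, 6 were called higher in shIDH1 and 5 in shJOSD2. These are 60% and 50%, where 24.5% and 18.2% of all tested genes were called higher. H2BC12 (ENSG00000197903, chromosome 6, 27146361 to 27146855, minus strand) was the most abundant clustered gene by a wide margin. Its model shares 28.4% of its stretches, of the length used for H2AC17, with other genes, most of all H2BFS. For H2BC18 the share is 17.6%, most of all with HIST2H2BA. Reads from shared stretches can be assigned to either gene, so that part of both levels is uncertain. H2BC12 stood at 40.8, 42.8 and 47.0 FPKM in control, 60.1, 62.4 and 70.0 with shIDH1 and 84.2, 79.9 and 77.3 with shJOSD2. The rise was 1.47-fold in shIDH1 (log2 0.56, SE 0.0899, adjusted p = 0.000205) and 1.67-fold in shJOSD2 (log2 0.74, SE 0.0899, adjusted p = 4.17e-05).

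For H2BC12 the order of the hairpins was thus the reverse of that for H1-2 and H2AC6, with no overlap between the groups. The difference between the hairpins was not called (log2 -0.18, adjusted p = 0.127), but it was called without normalization factors, with limma on FPKM values and without shIDH1 replicate 3. H2BC5, another core H2B gene, showed like values in both hairpin groups. It stood at 2.55, 2.76 and 2.17 FPKM in control, 4.49, 4.75 and 5.49 with shIDH1 and 5.46, 5.80 and 6.60 with shJOSD2. It was called higher in both, by log2 0.97 (adjusted p = 0.000468) and 1.10 (adjusted p = 0.000303). The difference between them was log2 -0.13 with an SE of 0.169.

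H2BC4 (ENSG00000180596, chromosome 6, 26114873 to 26123926, minus strand) had the largest log2 difference between the hairpins among the 4 clustered genes that averaged 5 FPKM or more. It stood at 1.56, 3.12 and 2.35 FPKM in control, 8.81, 11.4 and 13.4 with shIDH1 and 3.44, 3.51 and 3.70 with shJOSD2. The lowest shIDH1 library was above every other library. The rise in shIDH1 was 4.72-fold (log2 2.24, SE 0.251, adjusted p = 9.63e-06). In shJOSD2 the change was log2 0.44 (SE 0.247, adjusted p = 0.191), although its 3 libraries lay just above the control range. It passed there without control replicate 2 (log2 0.72, adjusted p = 0.0369) and with control replicate 1 alone (log2 1.06, adjusted p = 0.0187). The difference between the hairpins was log2 1.80 (SE 0.245, adjusted p = 6.45e-05).

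H2BC8 was low in control, at 0.270, 0.178 and 0.338 FPKM. It stood at 1.98, 1.24 and 1.97 FPKM in shIDH1 and 0.487, 0.489 and 0.835 with shJOSD2. The rise was 6.49-fold in shIDH1 (log2 2.70, adjusted p = 3.02e-05) and 2.06-fold in shJOSD2 (log2 1.04, adjusted p = 0.0287), and the latter call held in 14 of 21 alternative settings. It was lost without control replicate 1 or 2 (adjusted p = 0.0544 and 0.0956) and without shJOSD2 replicate 3 (adjusted p = 0.129). H2BC18 and H2BC21 on chromosome 1 were called higher in both groups, by log2 1.55 and 0.85 with shIDH1 and 1.04 and 0.56 in shJOSD2. Their shJOSD2 calls held in 12 and 13 of 21 alternative settings. Both were lost without control replicate 1 or 2, shIDH1 replicate 2 or shJOSD2 replicate 2 or 3, and that of H2BC18 also without control replicate 3, with adjusted p between 0.0527 and 0.129. The 4 tested H2B genes not called in either comparison with control were H2BC6, H2BC7, H2BC11 and H2BC15.

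**Figure D2:**
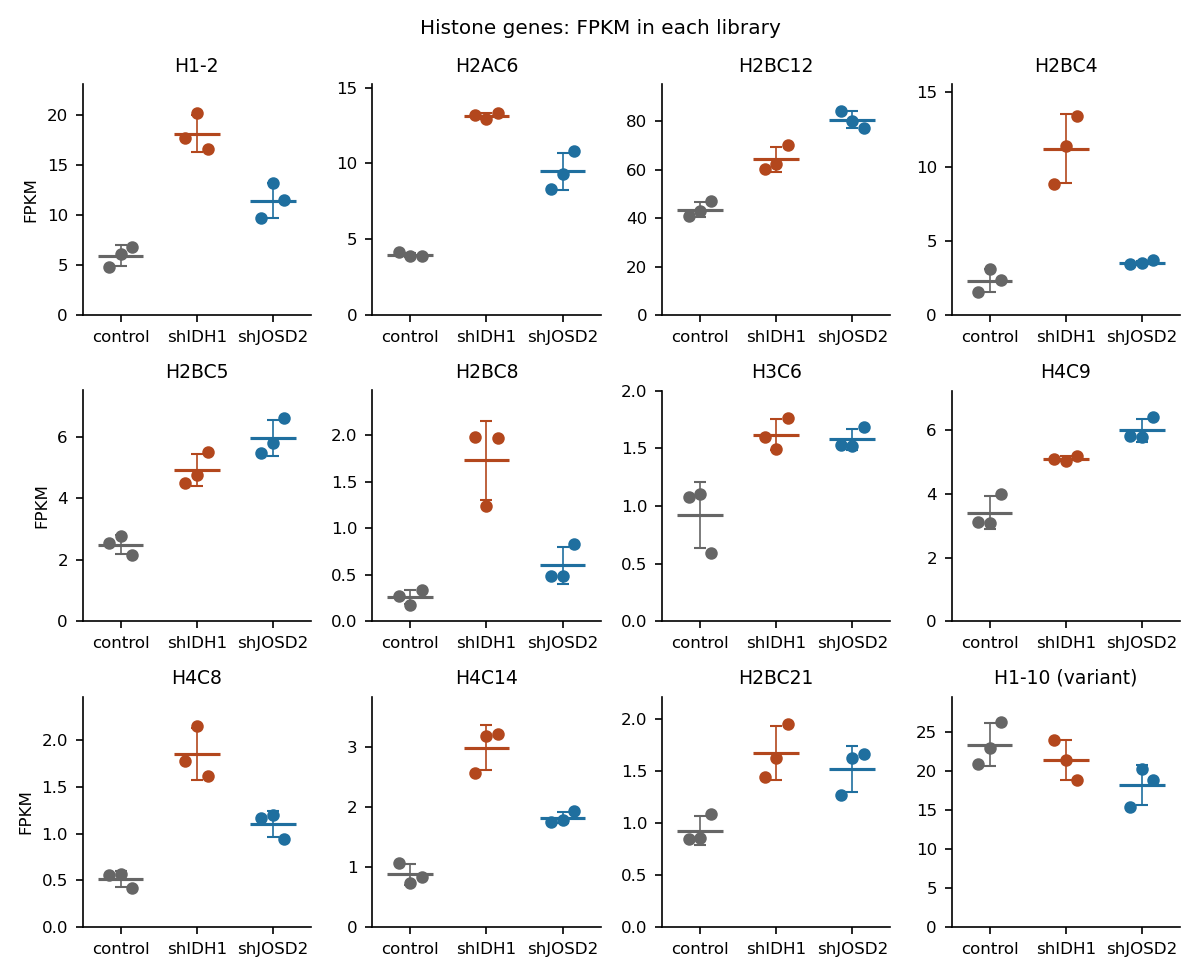
FPKM of 11 clustered histone genes and the variant H1-10 in each of the 9 libraries (points), with the mean (line) and SD (bars) of the 3 libraries of a group; each panel has its own axis from 0. H2BC4 stands at 8.81 to 13.4 FPKM in shIDH1 and at most 3.70 elsewhere and H2BC12 is highest in shJOSD2.

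H3, the core histone that carries many of the known tail modifications, was the scarcest family, at 1.60 to 2.54 FPKM summed over its 11 genes in control libraries. The sums were 2.93 to 3.11 with shIDH1 and 2.26 to 2.88 with shJOSD2. H3C6 was its most abundant gene, at 1.08, 1.10 and 0.594 FPKM in control, 1.60, 1.49 and 1.76 with shIDH1 and 1.53, 1.52 and 1.68 with shJOSD2. It was called higher in shIDH1 (log2 0.79, SE 0.223, adjusted p = 0.0101) and, close to the threshold, in shJOSD2 (log2 0.61, SE 0.223, adjusted p = 0.0476). The shJOSD2 call held in 9 of 21 alternative settings. Of the 9 libraries, leaving out any one but control replicates 1 and 2 ended it, with adjusted p between 0.0611 and 0.119.

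H3C13 had the largest fitted rise in shIDH1 (log2 3.22, SE 0.919, adjusted p = 0.011), from 4, 4 and 0 counts in control to 28, 30 and 20 with shIDH1. That size rests on few control counts, and the call was lost with control replicate 1 alone (adjusted p = 0.076). Its transcript shares 51.3% of its stretches of 100 bases with H3C14. H3C14 and H3C15 are identical copies over such stretches, and neither was called.

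Of the 5 tested H4 genes, 4 were called higher in each hairpin group. This is 80%, where 24.5% of all tested genes were called higher in shIDH1 and 18.2% in shJOSD2. H4C9 (ENSG00000276180, chromosome 6, 27138588 to 27139881, plus strand), the most abundant, stood at 3.12, 3.09 and 4.0 FPKM in control, 5.09, 5.01 and 5.17 with shIDH1 and 5.80, 5.77 and 6.40 with shJOSD2. It was called higher by log2 0.58 in shIDH1 (SE 0.141, adjusted p = 0.00416) and 0.67 in shJOSD2 (SE 0.140, adjusted p = 0.00242). H4C8 stood at 0.555, 0.566 and 0.415 FPKM in control, 1.77, 2.15 and 1.61 with shIDH1 and 1.17, 1.20 and 0.946 with shJOSD2. All 4 H4 genes encode the same core histone.

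H4C8 was called higher in shIDH1 by log2 1.82 (adjusted p = 1.56e-05) and in shJOSD2 by 0.94 (adjusted p = 0.00387), and it was higher in shIDH1 than in shJOSD2 by 0.88 (adjusted p = 0.00402). H4C14 and H4C15, near-identical copies on chromosome 1, had the same order. H4C14 stood at 1.07, 0.730 and 0.843 FPKM in control, 2.56, 3.18 and 3.22 with shIDH1 and 1.76, 1.78 and 1.94 with shJOSD2. The log2 changes of H4C14 were 1.75 and 0.90, and those of H4C15 were 1.61 and 0.83. Their transcripts share 94.9% and 97.1% of their stretches of 100 bases, so the split between them is uncertain and their 2 calls are not separate evidence. Against control replicate 1 alone, the shJOSD2 calls of H4C8, H4C14 and H4C15 were lost, at adjusted p = 0.0547, 0.0802 and 0.109.

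**Figure D3:**
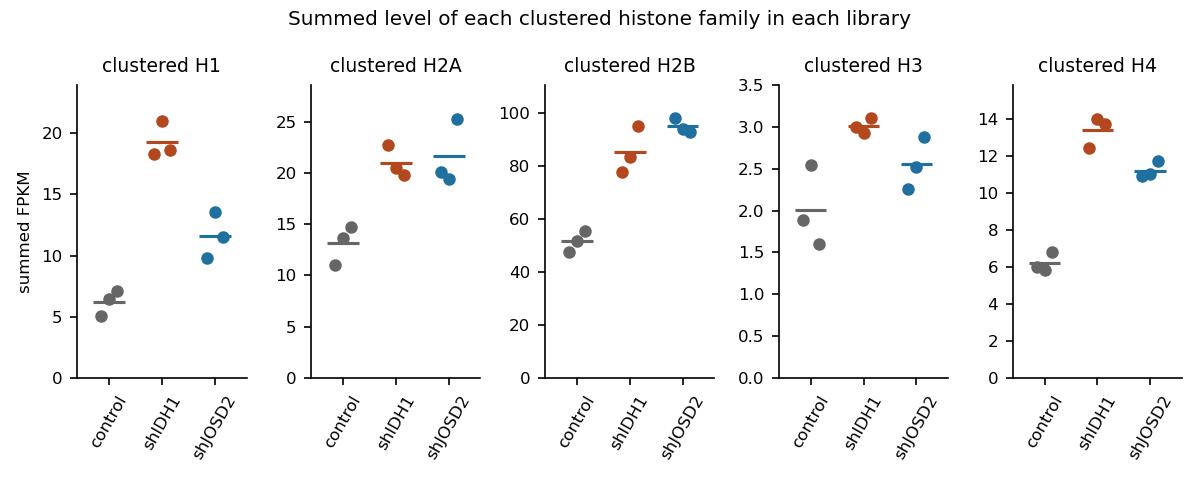
Summed FPKM of each clustered histone family in each library (points) with the group mean (line); each panel has its own axis from 0. In the clustered H1, H2A, H2B and H4 panels every control library lies below every hairpin library, and in the H3 panel control and shJOSD2 overlap.

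Variant linker histone genes lie outside the clusters. H1-10 (ENSG00000184897, chromosome 3, 129314771 to 129316286, minus strand), a divergent one, stood at 20.9, 22.9 and 26.3 FPKM in control, 24.0, 21.4 and 18.8 with shIDH1 and 15.4, 20.3 and 18.9 with shJOSD2. It fell in shJOSD2 (log2 -0.51, SE 0.121, adjusted p = 0.00511), and in shIDH1 the change was log2 -0.13 (SE 0.120, adjusted p = 0.414). The fall was not called with control replicate 1 alone (log2 -0.31, adjusted p = 0.175). The annotated span of H1-10-AS1, on the opposite strand, begins within H1-10. That gene stood at 0.531 ± 0.138 FPKM in control, 0.188 ± 0.0277 with shIDH1 and 0.441 ± 0.0473 with shJOSD2 (SD, n = 3 each). Whether the counting used strand is not given in the sources used here. H1-7 was listed at 0 FPKM in 8 libraries and was not tested.

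Among histone genes outside the naming rule, most calls were falls. Of 15 tested, 8 were called lower and 1 higher in shIDH1 against control, and 9 lower and 1 higher in shJOSD2, where 25.6% and 20.1% of all tested genes were called lower. H2AX, the variant phosphorylated at DNA breaks, stood at 40.4, 50.0 and 53.6 FPKM in control, 3.97, 2.30 and 3.19 with shIDH1 and 17.2, 14.9 and 14.1 with shJOSD2. It fell by 3.93 with shIDH1 and by 1.79 with shJOSD2, both on the log2 scale. H2AZ1, a variant placed at promoters, fell by 3.15 and 0.98, and CENPA, the H3 variant of centromeres, fell by 3.05 and 1.88. H3-3B, which encodes the replacement histone H3.3, was steadier, at 70.9 FPKM in control, 62.8 with shIDH1 and 60.0 in shJOSD2 on average. H2BU1, an H2B gene on chromosome 1 outside the main clusters, was the gene called higher in shIDH1, by log2 1.94 (adjusted p = 0.012). In shJOSD2 the gene called higher was MACROH2A2, a macroH2A variant, by log2 0.28 (adjusted p = 0.0184).

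Most calls among genes that act on histone mRNA or histone proteins were also falls, set beside the same shares of all tested genes. SLBP, the stem-loop binding protein, stood at 53.3, 54.8 and 62.3 FPKM in control, 32.4, 28.2 and 29.6 with shIDH1 and 29.4, 32.1 and 32.1 with shJOSD2. It fell by 0.92 (adjusted p = 4.8e-07) and 1.01 (adjusted p = 7.5e-07) on the log2 scale. NPAT, the coactivator of the clustered genes, fell by 0.44 in shIDH1 (adjusted p = 0.00338) and had a log2 change of 0.01 in shJOSD2 (adjusted p = 0.952). Of the 20 genes listed for histone mRNA synthesis and processing, 12 were called lower and 2 higher in shIDH1, and 10 lower and 3 higher in shJOSD2, with median log2 changes of -0.38 and -0.28. CTIF, a factor in the translation of mRNA bound by the nuclear cap complex, had the largest rise, at log2 1.48 in shIDH1.

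Of 26 histone chaperone genes, 20 were called lower and 2 higher in shIDH1, and 17 lower and 1 higher in shJOSD2, with medians of -1.15 and -0.61. ASF1B, a chaperone of H3 and H4, fell by 4.03 in shIDH1 and by 1.67 in shJOSD2 on the log2 scale. HJURP, the chaperone of CENPA, fell by 3.49 in shIDH1 and by 1.78 in shJOSD2. All 25 genes listed for S phase and DNA replication were called lower in both hairpin groups, with median log2 changes of -2.65 and -1.36. Their summed level was 648 to 858 FPKM in control, 130 to 166 with shIDH1 and 348 to 370 with shJOSD2. The part of this shift in the histone values was not tested.

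**Figure D4:**
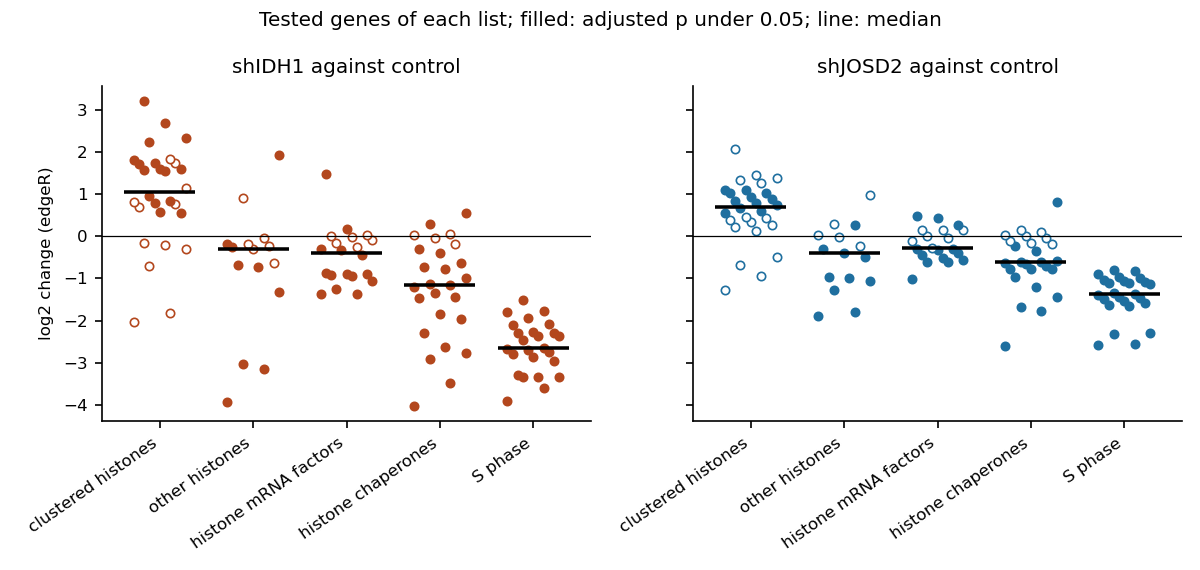
The log2 change of each tested gene against control (points; filled where the adjusted p was under 0.05) with the median (line), for the clustered histone genes, histone genes outside the naming rule, histone mRNA factors, chaperones and S phase genes. The clustered median is 1.07 with shIDH1 and 0.70 in shJOSD2, and the S phase medians are -2.65 and -1.36.

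RNAs that lack a poly(A) tail or stay in the nucleus were set beside the clustered genes. The list mixes these kinds, so its sum and its calls are no measure of captured RNA without a tail. Of 5 tested, 2 were called higher and 0 lower in each hairpin group, and none had an unadjusted p under 0.05 for a fall in edgeR. Over all tested genes, 24.5% were called higher in shIDH1 and 18.2% in shJOSD2. A list of 5 tested genes is too short to be set apart from those shares. MALAT1 had a log2 change of 0.60 in shIDH1 (adjusted p = 0.0024) and 0.19 in shJOSD2 (adjusted p = 0.297). RN7SK, an RNA polymerase III transcript, stood at 1.10, 1.10 and 0.151 FPKM in control, 0.473, 1.46 and 2.63 with shIDH1 and 4.55, 6.11 and 6.32 with shJOSD2. The 14 listed RNAs summed to 25.2 to 35.4 FPKM in control, 42.9 to 43.8 with shIDH1 and 44.5 to 45.0 with shJOSD2. MALAT1 and NEAT1 made up most of this sum, and NEAT1 was called higher in both groups, by log2 0.54 and 0.41. RN7SL1 averaged 3.38 FPKM in control, 2.83 with shIDH1 and 3.08 with shJOSD2 and was not called. The part of these RNAs in the clustered values was not tested.

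The annotated 3′ end went with which clustered genes could be tested. The annotation behind the deposited values is not given in the sources used here, and GENCODE v29 stood in for it. There, 19 clustered genes have a transcript that runs on for more than 100 bases past the stem-loop, and 16 of them, or 84.2%, were tested. Of 8 genes whose models end near the stem-loop, 4 were tested, and of 24 whose models do not hold the letters, 8 were tested. The remaining 2 clustered genes had no transcript in that annotation. A model without the letters can end before the stem-loop, so it does not show that the mRNA lacks one. The model of H2BC12 there has 381 bases and that of H1-2 has 642, against deposited spans of 495 and 731. A longer model gathers counts from more bases, so a gene with one passes a count filter at a lower FPKM. The median FPKM over all genes of a kind was 0.326 where the model runs on, 0.557 where it ends near the stem-loop and 0.0780 where no letters were found. Of the tested genes, 9 of 16, 2 of 4 and 5 of 8 were called higher in shIDH1, and 8, 1 and 3 in shJOSD2. Over all tested genes the shares were 24.5% and 18.2%. H2AC6 runs on for 1128 bases, H4C8 for 1655, H2BC8 for 1059 and H2BC4 for 116.

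**Figure D5:**
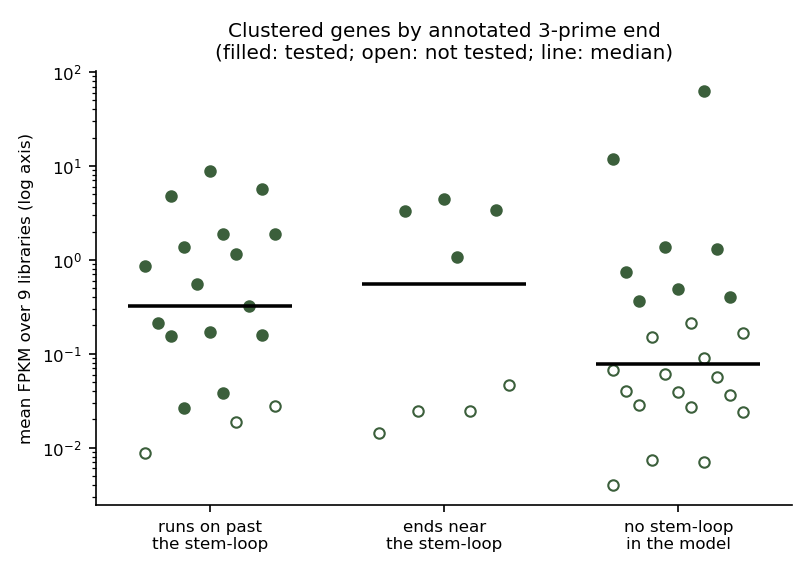
Mean FPKM over the 9 libraries (log axis) of the clustered histone genes by the 3′ end of their GENCODE v29 models; filled points were tested and lines are medians. Of the genes whose models run on past the stem-loop 16 of 19 are filled, and the highest point, H2BC12 at 62.7 FPKM, is in the group whose models do not hold the stem-loop letters. A model without the letters may end before the stem-loop.

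Genes that share a promoter did not always share a level. H2BC4 and H2AC6, the genes of the first promoter shown, have deposited starts 219 bases apart. They averaged 5.69 and 8.86 FPKM over the 9 libraries. Both rose in shIDH1, whereas in shJOSD2 only H2AC6 was called. H2BC8 and H2AC8, 283 bases apart, averaged 0.866 and 1.07 FPKM and were also both called higher in shIDH1. H2BC12 and H2AC12 start 251 bases apart. H2BC12 averaged 62.7 FPKM, whereas H2AC12 was listed above 0 in 2 control libraries only, at 0.119 and 0.121 FPKM. H2BC21 and H2AC20, 266 bases apart, averaged 1.38 and 0.362 FPKM, and in shIDH1 H2BC21 was called higher (log2 0.85) while H2AC20 had a log2 change of -2.04 and was not called. H2BC11 and H2AC11, 292 bases apart, averaged 1.29 and 0.553 FPKM, and neither was called against control.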

How the data were processed

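The table deposited by the authors holds a count and an FPKM value per gene and library. Per the file headers, the counts deposited by the authors are not normalized, and the FPKM values are scaled by transcript length and library size. Of counts from 1 to 16, 30.4% lay at 4, 8, 12 or 16, so 1 fragment may carry about 4 counts. The protocols in the labels describe oligo(dT) selection, dUTP strand marking, adapters with molecular identifiers and paired-end NovaSeq reads. The submitters' processing notes name StringTie 1.3.4d, UMI-tools, HISAT2 2.0.4 and cutadapt 1.9, and the build GRCh38. What each tool did, and with which annotation and strand setting, is not given in the sources used here.

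All 21492 genes kept by filterByExpr entered 1 edgeR 4.0.16 quasi-likelihood fit in R 4.3.3, with TMM factors, a mean per group and Benjamini-Hochberg adjustment. A standard error is the size of a log2 change divided by the root of its F value. Totals lay between 66036276 and 71612713 counts per library. The histone genes and all gene lists were chosen with earlier results of these data known. Genes named are the hairpin targets, the tested variants, the most abundant clustered gene per family, the 6 largest rises per comparison, and up to 3 called genes per list with CENPA, SLBP, NPAT and MALAT1. Other genes named, such as H1-10-AS1, MACROH2A2 and H2AC12, were chosen after their values were seen. Not reported here are a histone gene and a cell marker that these rules and lists name. Libraries were treated as unpaired replicates of their group. The fit was tested on simulated counts. The 21 alternatives were other filters and scalings, DESeq2 1.42.0, counts divided by 4, limma 3.58.1 on log2(FPKM + 1) and log2(FPKM + 0.1), a replicate block, only the compared groups, control replicate 1 alone and each library left out. Figures were drawn with matplotlib 3.10.9.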

Additional observations from a re-analysis of the deposited data

How the results depend on the processing

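The counts of clustered histone genes called higher were 14 to 17 in shIDH1 over all 21 alternatives. In shJOSD2 they were 8 to 16, but fewer with control replicate 1 as the lone control, and between the hairpins 7 to 9. Apart from that setting, 4621 to 6176 of all tested genes were called higher in shIDH1 and 3289 to 5638 in shJOSD2. Between the hairpins the range was 3316 to 5179. All genes called in the main comparison with control kept their sign in every alternative that tested them (19 for H1-4 and H3C13 in shIDH1, 21 for the others): 12 of 16 kept their call in shIDH1 throughout, and 5 of 12 in shJOSD2. Leaving out 1 library in turn gave 14 to 16, 8 to 11 and 7 to 8 genes called higher. The counts called lower were 0 to 1, 0 to 0 and 0 to 3. Of all tested genes, 5103 to 5337 were then called lower in shIDH1 against control and 4462 to 5322 between the hairpins. The replicate block gave 14, 11 and 8 called higher and 0 lower; same-numbered libraries did not deviate together, with correlations of -0.018 to 0.038. Genes called lower in shIDH1 against control appeared with limma on FPKM + 1 (2) and + 0.1 (2), namely H2AC17 and H2AC20. Of all 21492 tested genes, 5424 and 5488 were called lower there. Between the hairpins, genes called lower appeared without normalization factors (3), with counts divided by 4 (1), with limma on FPKM + 1 (4) and + 0.1 (4), and with only the compared groups (1). H2BC11, H2AC11 and H2BC12 were among them. Without normalization factors 6653 of all 21492 tested genes were called lower, and with limma 6835 and 6736. With counts divided by 4 the number was 5229 of 16832, and with only the compared groups 5129 of 20671. The cause was not tested. With control replicate 1 alone, which was assumed to vary like the other groups, the falls of APOA1 reversed to log2 changes of 0.076 in shIDH1 and 0.45 in shJOSD2, and that of TTR in shJOSD2 to 1.47. The lone control has no value for the comparison between hairpins. The median log2 change of the tested clustered genes was lowest with limma on FPKM + 1, at 0.46 in shIDH1, 0.36 in shJOSD2 and, apart from the unfiltered 0, 0.05 between the hairpins. Depth limits the 22 clustered genes with under 40 counts over the 9 libraries.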

Other observations

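Pseudogenes that lie among the clustered histone genes gave values of the same size as some coding members. H2BC19P and H2BC20P, pseudogenes of H2B on chromosome 1, stood at 1.05 ± 0.173 and 1.17 ± 0.224 FPKM in control libraries (SD, n = 3). They stood at 1.0 ± 0.101 and 1.15 ± 0.0842 in shIDH1, and at 1.10 ± 0.108 and 1.16 ± 0.0823 in shJOSD2 libraries. Their log2 changes in shIDH1 were -0.06 (SE 0.175) and -0.03 (SE 0.148), and in shJOSD2 -0.08 (SE 0.175) and -0.16 (SE 0.148). The other 6 pseudogenes with such names did not pass the filter.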
